A study of Mus musculus with 15 samples.

Results

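In mouse HPC-7 cells, 493 SMC3 regions were called in 2 or 3 of 3 control libraries and in none of 3 libraries from cells with an shRNA against YY1 (shYY1). They were selected on these calls, so the calls describe the set and do not test it. To find them, the peaks of the 6 SMC3 libraries were merged where they shared at least 1 bp on chromosomes 1 to 19, X and Y, which gave 6175 regions. The 493 regions made up 7.98% of these. A further 3137 regions were reproducible in control, meaning called in at least 2 control libraries, and were also called in at least 1 shYY1 library. They are the other control regions to which the set is compared below.

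HPC-7 is an early haematopoietic line made from mouse embryonic stem cells, and all groups are of this 1 line. The control cells are WT in genotype and title and carry shLUC, a luciferase shRNA name, in their descriptions. The shYY1 cells carry shYY1-2 there, with no word on what the number stands for. Control cells were profiled by CUT&Tag, in which an antibody tethers a transposase that cuts and tags nearby DNA, for SMC3, YY1, H3K4me3 and IgG, and shYY1 cells for SMC3, with 3 biological replicates per reaction and around 150000 cells in each. The IgG libraries were not analysed here. YY1 was read only in control cells, so how far the shRNA depleted it was not measured. Abcam stands in the description of replicate 1 of each SMC3 arm only, although the extraction protocol lists an Abcam product as the SMC3 antibody of the study.

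SMC3 is a subunit of cohesin, the ring complex that holds sister chromatids together and extrudes chromatin loops until it meets barriers such as CTCF. YY1 is a zinc finger transcription factor that binds promoters and enhancers, can pair with itself to bridge them, and is needed for blood stem cell function. H3K4me3, trimethylated lysine in the tail of histone H3, marks the promoters of active and poised genes.

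The RefSeq promoter windows used here lack some gene starts, so counts of windows are minimums. Of the 493 regions, 207 had their SMC3 summit inside a RefSeq promoter window, which runs from 250 bases before to 50 after a gene start. In 13 of these windows a long form of the YY1 motif, AANATGGCG, occurred on either strand, and in 6 it lay within the SMC3 region itself. Of those, 5 are printed as the stretch of the window that overlaps the SMC3 region, to show the motif next to the cohesin call, 5′ to 3′ on the gene's strand in GRCm38.p6, with the long motif in capitals. Rchy1 encodes a ubiquitin ligase that targets p53, Tatdn3 a putative nuclease (its start is shared with Nsl1, a kinetochore gene), Phf8 a histone demethylase, Samm50 a mitochondrial outer membrane assembly factor and Rpl34 a protein of the large ribosomal subunit.
Rchy1 (chr5:91962615-91962806, minus strand): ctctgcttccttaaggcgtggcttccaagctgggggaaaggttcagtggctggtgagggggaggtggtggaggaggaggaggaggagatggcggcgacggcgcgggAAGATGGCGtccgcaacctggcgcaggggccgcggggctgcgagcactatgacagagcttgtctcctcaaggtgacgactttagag
Tatdn3 (chr1:191062883-191063182, minus strand): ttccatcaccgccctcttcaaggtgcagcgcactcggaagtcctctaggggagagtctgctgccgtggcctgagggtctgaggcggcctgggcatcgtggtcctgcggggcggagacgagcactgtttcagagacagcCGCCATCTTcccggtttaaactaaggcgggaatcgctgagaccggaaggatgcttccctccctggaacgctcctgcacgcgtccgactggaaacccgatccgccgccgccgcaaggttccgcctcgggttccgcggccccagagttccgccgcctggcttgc
Phf8 (chrX:151520422-151520660, plus strand): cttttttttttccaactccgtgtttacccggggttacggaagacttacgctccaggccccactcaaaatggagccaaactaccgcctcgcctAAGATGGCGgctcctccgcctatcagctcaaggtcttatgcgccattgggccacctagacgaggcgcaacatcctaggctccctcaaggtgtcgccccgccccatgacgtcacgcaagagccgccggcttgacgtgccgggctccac
Samm50 (chr15:84192099-84192289, plus strand): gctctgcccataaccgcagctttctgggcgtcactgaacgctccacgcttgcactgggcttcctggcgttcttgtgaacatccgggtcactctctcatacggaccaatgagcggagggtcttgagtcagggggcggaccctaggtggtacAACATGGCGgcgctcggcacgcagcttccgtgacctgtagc
Rpl34 (chr3:130730349-130730504, minus strand): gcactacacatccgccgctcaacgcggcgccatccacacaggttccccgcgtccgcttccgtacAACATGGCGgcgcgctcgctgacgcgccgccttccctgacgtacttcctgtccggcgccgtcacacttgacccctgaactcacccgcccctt

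A further 4 stretches without the long motif are printed because they lie at regulators or were called in all 3 control libraries. Asxl1 encodes a Polycomb-associated regulator mutated in myeloid disease, Stat5a a transcription factor of cytokine signalling, Txnip an inhibitor of thioredoxin and Dnttip2 a nucleolar protein. Capitals mark the short YY1 core, GCCAT on either strand, where it occurred; the long motif contains this core. Txnip and Stat5a had no core match in the stretch printed.
Asxl1 (chr2:153345580-153345846, plus strand): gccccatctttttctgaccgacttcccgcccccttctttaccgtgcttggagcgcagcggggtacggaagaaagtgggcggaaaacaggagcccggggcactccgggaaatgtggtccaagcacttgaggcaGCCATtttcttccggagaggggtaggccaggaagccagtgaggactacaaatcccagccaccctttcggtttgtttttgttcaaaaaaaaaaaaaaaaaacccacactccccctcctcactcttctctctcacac
Dnttip2 (chr3:122274164-122274463, plus strand): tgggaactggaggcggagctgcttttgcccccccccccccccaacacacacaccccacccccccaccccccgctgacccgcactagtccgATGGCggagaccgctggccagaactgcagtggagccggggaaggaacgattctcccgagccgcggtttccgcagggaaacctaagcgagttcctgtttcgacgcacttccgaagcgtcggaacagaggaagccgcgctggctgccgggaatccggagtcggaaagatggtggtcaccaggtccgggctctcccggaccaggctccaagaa
Stat5a (chr11:100860274-100860481, plus strand): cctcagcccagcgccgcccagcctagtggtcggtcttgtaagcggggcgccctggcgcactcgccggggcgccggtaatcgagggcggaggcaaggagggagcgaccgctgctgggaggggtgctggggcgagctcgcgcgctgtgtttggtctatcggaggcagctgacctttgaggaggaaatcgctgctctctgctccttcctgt
Txnip (chr3:96557782-96557969, plus strand): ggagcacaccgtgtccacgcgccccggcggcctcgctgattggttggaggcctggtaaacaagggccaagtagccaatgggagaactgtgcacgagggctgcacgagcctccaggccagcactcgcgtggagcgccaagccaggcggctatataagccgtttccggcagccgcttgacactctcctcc

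The libraries were uneven. Control SMC3 lists held 4511, 4595 and 2061 peaks and shYY1 lists 2631, 3213 and 3032, so control replicate 3 had the shortest list of all and control replicates 1 and 2 the longest. YY1 lists held 8469, 10699 and 3750 peaks and H3K4me3 lists 16763 to 17895. The lists hold positions, lengths and summits with no score or read count, so the depth is unknown. A call cannot separate fewer cells with SMC3 at a site from less SMC3 per cell. For the cell type markers that follow, an H3K4me3 peak anywhere in the gene span or within 1000 bp of it was counted. H3K4me3 lay in at least 2 libraries at 14 of 14 early blood progenitor markers, and at 1 of 8 erythroid, 2 of 8 granulocyte and monocyte, 2 of 8 lymphocyte, 0 of 8 pluripotent and 0 of 10 fibroblast, epithelial and endothelial markers.

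Most of the set rested on the control libraries with the longest lists. Of the 493 regions, 398 (80.7%) were called in control replicates 1 and 2 only, 28 in 2 and 3 only, 27 in 1 and 3 only, and 40 in all 3. The 40 regions called in 3 control and 0 shYY1 libraries were 0.648% of all merged regions. Control replicate 1 called 465 regions of the set, replicate 2 called 466 and replicate 3 called 95. In the opposite direction, 55 regions (0.891%) were called in 2 or 3 shYY1 libraries and in no control library, and only 1 of them in all 3.

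The imbalance between 493 and 55 was not seen with lists cut to the same number of longest peaks. With the 2061 longest peaks taken from every SMC3 library, 146 regions were control only and 137 were shYY1 only by the same rule, with 22 and 26 of them in all 3 libraries of their arm. Of the 493 regions, 60 overlapped one of those 146. The cut evened the lists and also dropped short peaks, which were common in the set. Which of these changed the counts was not tested. Single libraries also moved the count. Without control replicate 1 or 2 it was 68 or 67, with 157 or 144 in the opposite direction, and without shYY1 replicate 2 it was 777. Without both libraries named Abcam it was 112 against 85.

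**Figure D1:**
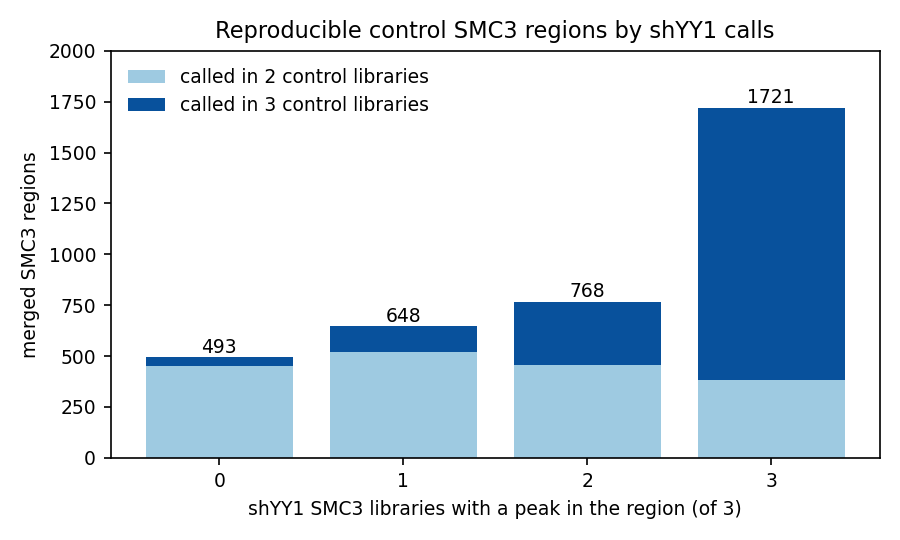
Number of SMC3 regions called in 2 or 3 control libraries (vertical axis, stacked by the number of control libraries) against how many of the 3 shYY1 libraries also called them. The 493 regions never called in shYY1 include 40 called in all 3 control libraries, whereas 1339 of the 1721 regions called in every shYY1 library were.

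The next question was whether such a choice carries over to SMC3 libraries that took no part in it. Regions were chosen as called in both of 2 control libraries and in neither of 2 shYY1 libraries, and then read in the control and the shYY1 library left out, in 9 combinations that chose 110 to 702 regions each. The left-out control library had a peak at 69.2% of them for replicate 1, 70.5% for replicate 2 and 13.1% for replicate 3. The left-out shYY1 library had a peak at 33.7, 44.8 and 37.8%. Control replicates 1 and 2 thus lay above all shYY1 libraries and control replicate 3 below all of them.

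The means were 50.9% ± 32.8 for control and 38.8% ± 5.63 for shYY1 (SD, n = 3), a difference of 12.2 points with an exact two-sided permutation p of 0.5, where 0.1 is the smallest possible. The rates share libraries with each other, and regions were not chosen anew for each permutation. The p values of held-out rates therefore only describe these libraries. The difference is smaller than the control SD. Averaging only the combinations that did not leave out control replicate 3 gave 27.0 points (exact permutation p = 0.1, the smallest possible). The same for control replicate 1 or 2 gave 5.01 or 4.45 points (exact permutation p = 0.8 for each). In each case that replicate still took part in choosing the regions, so these values are not results without it. With lists cut to the 2061 longest peaks the left-out control libraries gave 45.8, 48.1 and 38.5% and the shYY1 libraries 47.4, 40.2 and 40.3%, a difference of 1.50 points (exact permutation p = 0.9), with overlapping groups.

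The opposite choice, regions called in both of 2 shYY1 and in neither of 2 control libraries, picked 15 to 85 regions. The left-out control libraries called 73.0, 67.6 and 11.6% of these and the left-out shYY1 libraries 19.0, 26.2 and 28.6%. Control replicates 1 and 2 therefore called most of the regions picked for being absent from other control libraries. Of the 3467 regions called in both control replicates 1 and 2, control replicate 3 called 52.4% (95% Wilson interval 50.8 to 54.1, counting error only), and shYY1 replicates 1 to 3 called 63.3, 72.7 and 70.5%. For the other control pairs the order was the opposite. Of the 1899 regions called in control replicates 1 and 3, control replicate 2 called 95.7% and the shYY1 libraries 82.5, 87.7 and 85.8%, and of the 1900 called in 2 and 3, control replicate 1 called 95.7% and the shYY1 libraries 82.2, 87.7 and 85.7%.

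**Figure D2:**
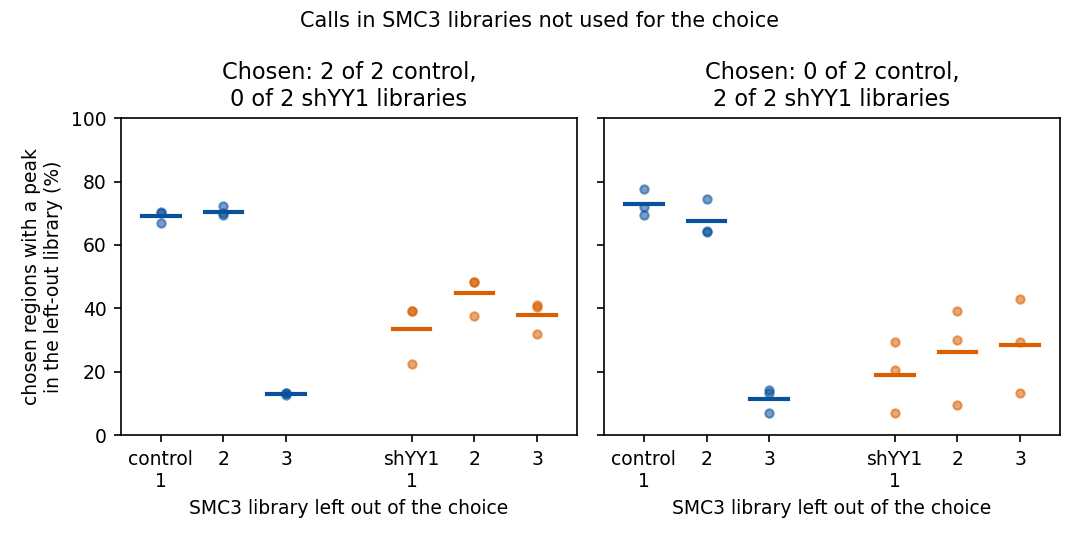
Share of chosen regions with a peak (percent) in the SMC3 library left out of the choice; each point is 1 of the 3 partner choices and the bar is their mean. For both choices shown, control replicates 1 and 2 called between 67.6 and 73.0% on average and control replicate 3 between 11.6 and 13.1%.

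SMC3 peaks of the set were short. Their mean control peak length, as a percentile within each library's list, had a median of 28.8 (quartiles 18.0 and 42.6), against 56.2 (39.1 and 73.9) at the other control regions. These lengths come from the peaks that chose the set and are given as description. Just inside the rule, regions called in 2 control and 0 shYY1 libraries had a median percentile of 27.7. Just outside it, regions in 1 control and 0 shYY1 libraries had 20.6 and regions in 2 control and 1 shYY1 library 37.4. The percentile rose with shYY1 calls, to 45.6 and 56.4 at regions in 2 control and 2 or 3 shYY1 libraries. The rule excluded any region overlapping an shYY1 SMC3 peak. Such a peak lay within 1000 bp of 17 regions of the set (3.45%) and within 10000 bp of 52 (10.5%). The median distance was 65685 bp. Regions called in 1 control and 0 shYY1 libraries had 4.17%, 11.9% and 78669.5 bp.

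Of the 40 regions called in all 3 control libraries, the plot of peak lengths shows the 20 with the highest control SMC3 length percentile. Dnttip2 (chr3:122274076-122274601, over its start) had control SMC3 peaks of 306, 376 and 189 bp, and YY1 and H3K4me3 in 3 of 3 libraries. Sirt4, a mitochondrial sirtuin gene, had SMC3 peaks of 442, 197 and 355 bp at its end (chr5:115489787-115490228), with YY1 in 3 libraries and H3K4me3 in 2. Clpp, which encodes a mitochondrial protease, (chr17:56990003-56990346) had 225, 297 and 249 bp, with the summit 17 bp upstream of its start. No library was the longest at all of these sites.

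Among the other genes called in all 3 control libraries, Psma3 (a proteasome subunit, chr12:70974652-70974981) had 272, 308 and 171 bp, Rpl39 (large ribosomal subunit) 197, 173 and 286 bp, and Tuba1a (an alpha tubulin) 290, 134 and 228 bp. Each had YY1 and H3K4me3 in 3 of 3 libraries. Rchy1, whose motif is printed above, had SMC3 peaks of 377, 135 and 233 bp and YY1 peaks of 637, 632 and 412 bp. Tut4, which encodes an enzyme that adds uridines to RNA ends, had YY1 peaks of 726, 790 and 463 bp over SMC3 peaks of 189, 225 and 238 bp (chr4:108459662-108459965).

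Of these 40 regions, 25 lay within 1000 bp of a gene end, 9 inside a gene and 6 outside genes. A region 3561 bp beyond the span of Kit, the stem cell factor receptor gene, had SMC3 peaks of 396, 355 and 187 bp (chr5:75660283-75660681) and no YY1 or H3K4me3 peak in any library. A region inside Tex14, a gene of germ cell intercellular bridges, had SMC3 peaks of 373, 165 and 301 bp and YY1 in 3 libraries but no H3K4me3. A second region of the set lay inside Tex14, in 2 control libraries, also with YY1 in 3 and H3K4me3 in 0. Next to Rgs1, a regulator of G protein signalling, SMC3 was called in 3 control libraries, YY1 in 1 and H3K4me3 in 0.

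**Figure D3:**
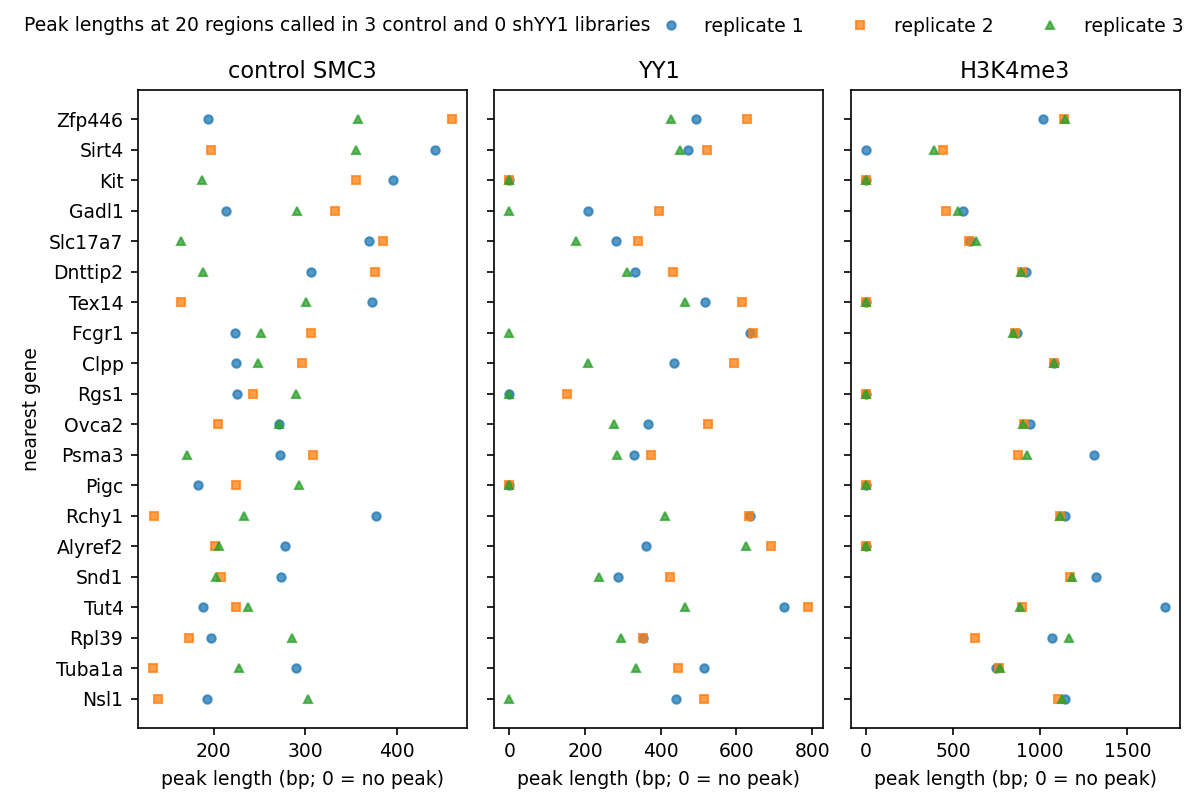
Peak length in bp per library (0 where there was no peak) for control SMC3, YY1 and H3K4me3 at the 20 regions called in 3 control and 0 shYY1 libraries with the highest control SMC3 length percentile, named by the nearest gene. Kit and Pigc have SMC3 peaks with no YY1 and no H3K4me3, and 14 of the 20 have YY1 in all 3 libraries.

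Across the genome, 387 protein-coding genes had a region of the set within 1000 bp of an end of their span, 12.9% of the 3010 genes with a reproducible control SMC3 region there. Another control SMC3 region at an end, called in shYY1, was present at 13 of the 387. How many of the 3010 genes have a further control region at an end was not counted. The 13 therefore cannot be called few or many. At 70 regions at least 2 genes shared the region, so the gene counts are not independent. Counts for the gene lists below are read beside this 12.9%. Ends are the outer limits of a span, so a region at a start inside the span is not counted. Examples are regions with summits at 53 bp from a start of Psma3 and -72 bp from a start of Psma6. In all, 17 listed genes had a region of the set inside their span and none at an end.

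None of the 10 haematopoietic transcription factor genes with control SMC3 at an end had it in the set. A region inside Runx1, a master regulator of blood stem cell emergence, 3616 bp downstream of its nearest start (chr16:92822276-92822534), was in the set with SMC3 peaks of 259 and 170 bp in control replicates 1 and 2, YY1 in 1 library and H3K4me3 in none. Runx1 was outside the naming rule and was picked after its values were seen.

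Of 8 cytokine receptor and JAK-STAT genes with control SMC3, 2 were in the set. Stat5a (chr11:100860274-100860481) had SMC3 peaks of 153, 188 and 163 bp, YY1 in 2 libraries and H3K4me3 peaks of 1490 to 1512 bp. Cbl, a ubiquitin ligase that turns off receptor tyrosine kinases, had SMC3 peaks of 159 and 186 bp and none in control replicate 3. Of 4 NF-kappaB genes 2 were in the set, both inhibitors: Nfkbia (chr12:55492492-55492786), with SMC3 in control replicates 2 and 3 (251 and 252 bp) and YY1 in 1 library, and Nfkbib, with 142 and 210 bp in control replicates 1 and 2 and YY1 in 3. Of 11 AP-1 and immediate early genes only Junb (chr8:84976357-84976694), an AP-1 subunit, was in it, with peaks of 146 and 333 bp in control replicates 1 and 3. The Junb region lay 215 bp outside the gene span, with its summit 2127 bp downstream of the start.

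Chromatin genes included a partner of SMC3 itself. Smc1a (chrX:152016294-152016484), which encodes the other SMC subunit of the cohesin ring, was 1 of 3 cohesin genes with control SMC3 at an end, and its region over the start had SMC3 peaks of 178 and 191 bp in control replicates 1 and 2, YY1 peaks of 706 and 670 bp in 2 libraries and H3K4me3 in 3. Inside Rad21, the cleavable cohesin subunit gene, a region was called in control replicates 1 and 2 at 140 and 144 bp; it too was picked after its values were seen. Of 14 YY1, INO80 and Polycomb genes 3 were in the set, namely Ino80c (an INO80 remodeller subunit), Pcgf1 and Cbx8 (both Polycomb subunits). Of 13 epigenetic regulators mutated in myeloid disease it held Asxl1, with SMC3 peaks of 150, 198 and 233 bp and YY1 peaks of 503, 621 and 424 bp, and Kmt2c, a histone methyltransferase gene with a pair of regions within 1000 bp of its end and the same YY1 peak over both.

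Ribosomal protein genes gave 7 of 27. Among them Rpl11, Rpl13, Rpl34, Rpl38, Rpl39 and Rps6 had H3K4me3 in 3 libraries and YY1 in 2 or 3. Only Rpl39 of these had SMC3 in all 3 control libraries. Proteasome subunit genes gave 3 of 8 (Psma7, Psmc4 and Psmd7), translation factors 5 of 28, splicing and hnRNP genes 4 of 30 and oxidative phosphorylation genes 2 of 22 (Ndufs8 and Ndufv1, both of complex I). Histone genes gave 4 of 36, from 2 shared regions, H2ac19 with H3c15 and H3c1 with H4c1. Numbered zinc finger genes gave 7 of 58, chaperone and stress genes 2 of 15 (Hsf1 and Ptges3), mitochondrial ribosomal proteins 2 of 14, cell cycle genes 1 of 13 (Txnip), tRNA synthetases 1 of 9 (Vars), antioxidant genes 1 of 8 (Sirt4), glycolysis 1 of 7 (Pfkp), tubulins and actins 1 of 3 and Bcl2 family genes 0 of 2. With so few genes in each list, these counts are given without a test.

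YY1 was common in the set. A YY1 peak lay in 86.0, 93.1 and 36.9% of its regions in YY1 replicates 1 to 3, against 96.2, 98.5 and 70.8% of the other control regions. The set was lower in 3 of 3 YY1 libraries, with a mean difference of -16.5 points (SD 15.3; exact two-sided sign-flip permutation p = 0.25, the smallest that 3 libraries allow). The YY1 libraries played no part in choosing the set. In all, 421 regions (85.4%) had YY1 in at least 2 libraries, 180 in 3, 43 in 1 and 29 in none.

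The size of the difference in YY1 depended on YY1 replicate 3, which had the fewest peaks; without it the mean was -7.80 points. The other regions also differed in control calls: 1778 of the 3137 had SMC3 in 3 control libraries, against 40 of the 493. Within regions called in control replicates 1 and 2 only, a comparison added after the data were seen, the shares were 86.9, 94.2 and 34.4% in the set (398 regions) and 93.8, 96.9 and 53.5% in the others (1251 regions), a mean difference of -9.54 points (exact sign-flip permutation p = 0.25). The direction was the same in each YY1 library.

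The share with YY1 rose stepwise with the number of shYY1 libraries that called SMC3. YY1 in all 3 libraries was found at 36.5% of the set and at 49.4, 59.9 and 83.1% of the reproducible control regions called in 1, 2 and 3 shYY1 libraries. Within regions called in exactly 2 control libraries the values were 34.4, 44.3, 53.5 and 63.4%. The regions called in 3 control libraries gave 60.0, 69.8, 69.4 and 88.8%, so the step from 1 to 2 was absent there. Where YY1 was called, its peaks were shorter in the set, at median length percentiles of 53.6, 60.0 and 45.8 in the 3 YY1 libraries against 73.3, 76.6 and 60.8 (mean difference -17.1, SD 2.40, exact sign-flip permutation p = 0.25). The mean difference was -8.93 within control replicates 1 and 2 only and -7.91 within regions called in 2 control libraries (exact sign-flip permutation p = 0.25 for each).

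**Figure D4:**
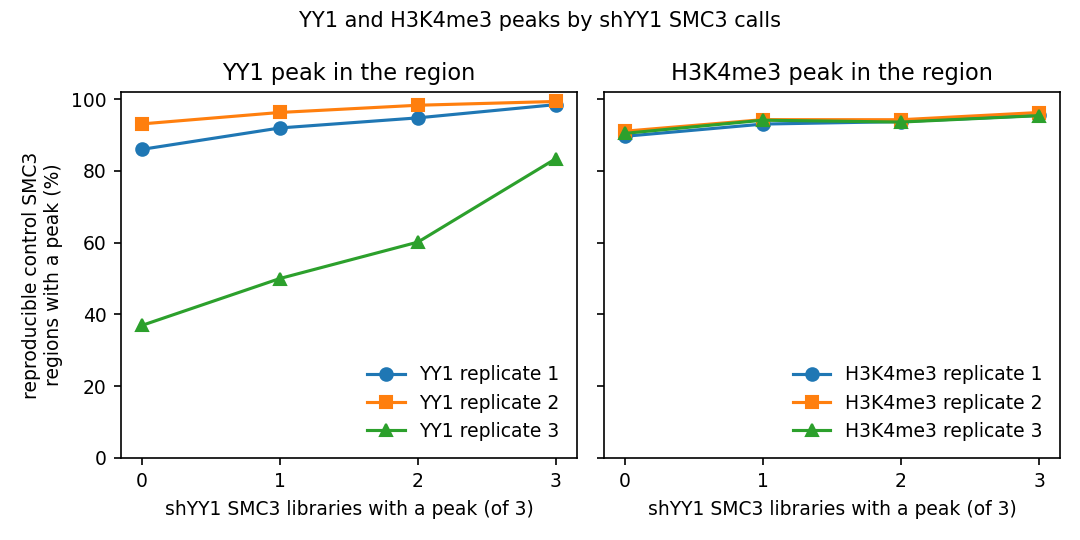
Share of reproducible control SMC3 regions (percent) with a YY1 peak (left) or an H3K4me3 peak (right) in each replicate, by the number of shYY1 SMC3 libraries that called the region. At 0 shYY1 libraries, the set itself, YY1 was at 86.0, 93.1 and 36.9% and H3K4me3 at 89.7 to 91.1%, the lowest values of each line.

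Some regions of the set had long YY1 peaks. The highest YY1 length percentiles were at Spag7, Phf8, Rdm1, Rbx1 and Neurl4, each called in 2 control libraries. At Spag7 (chr11:70668729-70668969) the YY1 peaks were 1024, 1074 and 737 bp and the SMC3 peaks 144 and 241 bp. At Phf8 they were 867, 964 and 784 bp over SMC3 peaks of 198 and 243 bp. At Rbx1, the RING subunit of cullin ubiquitin ligases, YY1 peaks were 853, 935 and 692 bp. At these sites control YY1 peaks were among the longest of their lists while the SMC3 peaks were of low to middle length. An shYY1 SMC3 peak lay 250 bp from the Rbx1 region. For Spag7, Phf8, Rdm1 and Neurl4 the closest was 13742 bp away, at Rdm1.

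H3K4me3 lay in 89.7, 91.1 and 90.5% of the set and in 94.5, 95.4 and 94.7% of the other control regions. The set was lower in 3 of 3 libraries, with a mean difference of -4.48 points (SD 0.360; exact sign-flip permutation p = 0.25). The median H3K4me3 length percentiles were 67.8, 69.7 and 69.8 against 73.5, 74.8 and 74.2, a mean difference of -5.08 (SD 0.678; exact sign-flip permutation p = 0.25). Within control replicates 1 and 2 only, the difference in share was -2.25 points and that in length percentile -1.78. In the set 171 regions (34.7%) had YY1 and H3K4me3 in all 3 libraries of each, and 442 had both marks in at least 1.

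The remaining 51 regions lacked 1 or both marks. YY1 without any H3K4me3 was seen at 22 and H3K4me3 without any YY1 at 16. Neither mark was seen at 13 (2.64%), against 21 of the 3137 other regions (0.669%). Among regions without YY1, those with the longest SMC3 peaks were nearest to Tex35, Col19a1, Kit, Tbc1d4 and Bin3. At Tbc1d4, a regulator of glucose transporter traffic, the SMC3 summit lay 12 bp from the start under H3K4me3 peaks of 1561, 1467 and 1580 bp. The regions near Kit and inside Bin3 had no H3K4me3 either.

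By position, 315 of the 493 regions (63.9%, 95% Wilson interval 59.6 to 68.0) lay within 1000 bp of a gene end, 107 (21.7%) inside a gene and 71 (14.4%) outside genes. Of the other control regions 70.0% (68.3 to 71.6), 17.1% and 13.0% did. Regions called in 1, 2 and 3 shYY1 libraries were at gene ends in 63.6, 66.9 and 73.7%. The set and the regions called in 1 shYY1 library had nearly the same share.

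Around gene starts the SMC3 summits of the set lay farther downstream than those of the other control regions. Starts come from RefSeq promoter windows, and 478 regions of the set and 3043 others lie on chromosomes with such windows. Some genes on these chromosomes have no window. The region 0 bp from an end of Hsf1 had its nearest start at -510234 bp, and that 10 bp from an end of Psmd7 at -82571 bp. The shares with a start nearby are therefore minimums. A start was within 1000 bp at 292 of the 478 (61.1%) and at 68.0% of the others. Among these, the median summit lay 30.5 bp upstream in the set (quartiles -114 and 72 bp) and 70.0 bp upstream in the others (-147 and 17 bp). Summits were upstream of the start in 59.9% of the set, and in 66.0, 69.5 and 72.8% of regions called in 1, 2 and 3 shYY1 libraries. Within control replicates 1 and 2 only the values were 59.0 and 70.9%. Regions called in 1 control and 0 shYY1 libraries had values near those of the set, with a median 23.0 bp upstream and 57.8% upstream. Of the 40 regions called in all 3 control libraries, 23 had a start within 1000 bp. These few did not share the pattern: their median was 99.0 bp upstream and 78.3% were upstream.

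**Figure D5:**
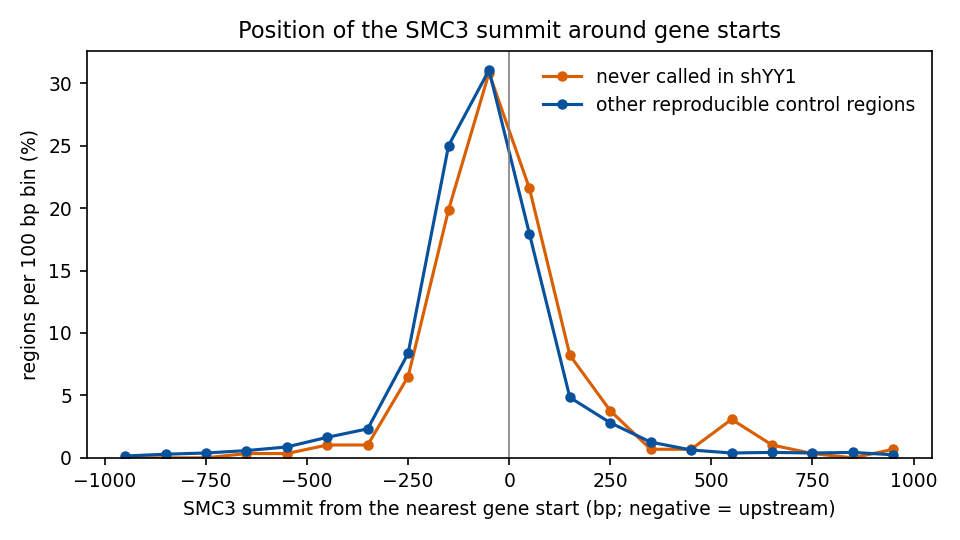
Distance of the mean control SMC3 summit from the nearest RefSeq gene start in 100 bp bins (horizontal axis, negative upstream), as percent of the regions with a start within 1000 bp. Of the set, 21.6% fell within 100 bp downstream and 8.22% between 100 and 200 bp downstream, against 17.9 and 4.84% of the other control regions.

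The promoter sequences of the set were GC-rich, like those of the other regions. Median GC content of the windows was 64.3% in the set and 65.0% in the 1557 windows of other control regions, against 62.0% in the 10900 windows with H3K4me3 in at least 2 libraries and 52.7% in all 32851. The long YY1 motif was in 6.28% of the windows of the set, 6.42% of the others, 5.95% of the H3K4me3 windows and 2.38% of all. The core GCCAT was in 46.4% of the set, 38.5% of the others, 38.9% of H3K4me3 windows and 40.5% of all. The ETS motif CCGGAAG was in 22.7, 21.8, 20.8 and 8.86% in the same order, and the CTCF motif in 1.45, 0.835, 0.789 and 0.557%. Motifs were searched on both strands, a match is only these letters in the window, and no test was made.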

How the data were processed

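The authors' deposited files are peak lists, 1 for each of 12 libraries, and hold positions, with peak names, starts, ends and summit offsets in bp as their only values; per the file headers there is no score, read count or p value. MACS2 2.2.9.1, Bowtie2 2.5.1, cutadapt 4.5 and Picard 3.1.1 are listed with build mm10, per the submitters' processing notes; their settings and any use of IgG were not stated. The depth is unknown, so precision rests on the 3 libraries of a group.

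Peaks were merged with Python 3.11.15, pandas 2.3.3, NumPy 2.4.6 and SciPy 1.17.1, and coordinates are counted from 1. A region's value in a library is the length of its longest peak there, or the percentile of that length within the list. A planned stricter peak threshold was replaced by equal numbers of the longest peaks, since no score exists. Genes and promoter windows are RefSeq's for GRCm38.p6, whose gene spans carry no strand. Chromosome 18, with 15 regions of the set, has no windows in the table used here, and some genes on other chromosomes have none. All 22 gene lists were matched by symbol, and all listed genes were found.

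Shares were compared by exact sign-flip permutation over libraries and by exact permutation of 3 against 3, whose smallest p values are 0.25 and 0.1, so no comparison could pass 0.05. Named genes are up to 20 regions in 3 control libraries with the longest peaks, those at listed genes, the 5 with the longest YY1 and the 5 longest without YY1, and genes with 2 regions or more, among which are Gm20517 and Mindy1; not all are printed. The set and the lists were chosen with earlier results of these data known. The merging, selection and held-out steps were run on simulated peak lists with planted losses. Only the recovery of the planted losses was checked, which follows from the selection rule. Mark, position and motif calculations were not simulated.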

Additional observations from a re-analysis of the deposited data

How the results depend on the processing

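The number of control regions never called in shYY1 (493) was within 1.5 times that value under 5 of 11 alternatives. It was 146 with equal numbers of longest peaks, 40 with 3 of 3 libraries and 112 without both libraries named Abcam, and ranged from 67 to 777 when 1 SMC3 replicate was left out. The opposite count (55) was 137, 1 and 85 under the same 3 settings and ranged from 13 to 157 with 1 SMC3 replicate left out; leaving out a library makes the rule stricter in its arm and looser in the other. The share within 1000 bp of a gene end was 69.2% with a window of 2500 bp, wider by construction, and 57.4 to 66.1% with 1 SMC3 replicate left out.

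The held-out difference of 12.2 points stayed above 0 in all 10 alternatives, between 1.50 and 27.0 points. These alternatives are not independent. Setting aside 1 SMC3 library at a time, which gave the 27.0, only re-averaged some of the 9 combinations. That library still took part in choosing the regions. Leaving out control and shYY1 libraries of the same number together (a replicate block) gave a difference of 10.7 points. Its exact sign-flip permutation p was 0.5. Blocks 1 and 2 gave 27.7 and 23.8 points, and block 3 went the other way at -19.4 points. Nothing in the labels ties equal numbers to a shared culture or day. Over 18 alternatives each, the set stayed below the other regions in YY1 share (-22.1 to -7.80 points), YY1 peak length (-22.6 to -7.91 percentile points), H3K4me3 share (-15.7 to -2.25) and H3K4me3 peak length (-17.6 to -1.63), with exact permutation p of 0.25 to 0.5, the smallest possible in each. Neither the depth of the libraries nor the strength of a peak can be read from these lists, so a missing call is not a measured absence of SMC3.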

Other observations

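The 55 regions called in 2 or 3 shYY1 libraries and in no control library had YY1 peaks in 63.6, 72.7 and 34.5% of cases in YY1 replicates 1 to 3, and 67.3% had H3K4me3 in at least 2 libraries. Of them 49.1% lay within 1000 bp of a gene end and 21.8% had neither mark in any library. The 1366 regions called in 1 control library and no shYY1 library had YY1 in 69.5, 80.7 and 21.7%, and 54.9% lay at a gene end.

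The set's share of reproducible control regions ranged over the autosomes from 9.87% on chromosome 12 (15 of 152) to 19.8% on chromosome 19 (20 of 101). It was 17.1% on chromosome X (14 of 82) and 0 of 8 on chromosome Y. These shares were not tested. Kmt2c, Tex14, Mindy1 and Gm20517 each held 2 regions of the set at an end or inside their span.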
